A study of Mus musculus with 4 samples.

Results

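Finer cluster 8 is the smallest of the 9 clusters that the authors deposited at the finer of their clustering resolutions (0.4) for sorted mouse brain cells. Its members were taken as the deposited cells with the value 8 in that annotation column, 2488 of 74758 cells, and no expression value was used to choose them here. The cells came from 20 mice, all homozygous for TfRmu/hu, a transferrin receptor with a humanised apical domain to which the antibody transport vehicle (ATV) binds. Each group held 4 mice. WT;TfRmu/hu mice received ATV:ISO (an isotype control) or ATV:4D9 (an antibody that activates TREM2, carried by the ATV). AppSAA;TfRmu/hu mice, which carry App knock-in mutations of familial Alzheimer's disease in both copies and form amyloid plaques, received ATV:ISO, the plain antibody 4D9 or ATV:4D9. The dose was 10 mg/kg, and brains were taken 24 h later. The mice were C57BL/6J, 1 WT ATV:ISO mouse was recorded as female and the others as male. An age of 8 months is given for male mice of the amyloid line, and whether it covers the WT mice is unclear. The isotype arm carries the label ATV-DNP02 in the files, and reading it as ATV:ISO is not spelled out in any deposited text. Groups are called WT or AppSAA below.

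The mice were loaded in 4 pools with 1 mouse from each group, so the number of a mouse is also its pool. Between 2193 and 6126 cells per mouse were deposited, with 17150296 to 102446549 UMIs (counted RNA molecules) per mouse. Of the 74212 barcode sequences of the 74758 cells, 543 occurred in more than 1 pool. Of the 2488 cells of finer cluster 8, 39 had such a barcode. The share over all cells is not given here, so the count does not mark a trait of the cluster. The cells were sorted for CD11b, and sources differ on whether CD45 was used as well, so only sorted cells could be counted.

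Microglia are the resident macrophages of the brain. In the healthy brain they express the homeostatic genes P2ry12, Tmem119 and Cx3cr1, and around amyloid plaques they take on a disease-associated (DAM) program with Apoe, Cst7, Lpl and Trem2. TREM2 is a surface receptor for lipids that signals through the adaptor Tyrobp. Malat1, Neat1 and Kcnq1ot1 are long noncoding RNAs that stay in the nucleus. Immediate early genes such as Fos and Jun give short-lived mRNAs that rise quickly after a stimulus.

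Microglial markers were found in most of the cells, though less often than in the other cells. A cell of finer cluster 8 had UMIs of a median of 9 of 10 microglial markers against 10 in all other cells, and 97.7% of its cells had at least 5 of them against 99.98%. C1qa was found in 99.8% of these cells, Trem2 in 98.7% and Cx3cr1 in 93.1%, against 100.0%, 99.98% and 99.9% of the other cells. Tmem119 was found in 74.6% against 96.8% and Sall1, a transcription factor of microglia, in 43.2% against 86.1%, at median depths of 8959 and 11457.5 UMIs per cell. No cluster named for a cell type without these genes was measured here, so the share of cells that free RNA alone would give is unknown and its part in these shares was not tested. At least 2 different genes of the 10 border macrophage genes were found in 6.59% of its cells against 17.0% of all other cells. For at least 2 different genes of a list, the values were 8.16% against 19.2% for B cell genes and 2.41% against 8.51% for oligodendrocyte genes. For astrocyte genes they were 0.764% against 3.13%. No cell of finer cluster 8 had UMIs of 2 different genes of the neuron, dendritic cell or T and NK cell lists, of which 1, 1 and 6 genes were at 0 in the cluster. In the other cells the shares were 0.115%, 0.0927% and 0.0111%, so low that finding no such cell here says little.

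The cells of finer cluster 8 held few kinds of RNA for their depth. They had a median of 2073 genes per cell, the fewest of the 9 clusters, against 3356 in all other cells, 3413 in finer cluster 3 and 3965 in finer cluster 1. Their median was 8959 UMIs per cell, against 11457.5 in all other cells, 13888.5 in finer cluster 3 and 15366 in finer cluster 1. The mitochondrial percentage, a common sign of cell quality, had a median of 2.46%, the highest of the 9 clusters, against 1.44% in all other cells, 1.81% in finer cluster 3 and 1.48% in finer cluster 1. The highest value in any deposited cell was 7.49%.

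The same held mouse by mouse. In the 17 mice with at least 20 cells of finer cluster 8, the median number of genes was lower than in the other cells of the same mouse in 17 of 17 mice (median ratio 0.625, range 0.493 to 0.721). The mitochondrial percentage was higher in 17 of 17 mice (median ratio 1.63, range 1.08 to 2.09). UMIs were lower in 13 of 17 mice (median ratio 0.895, range 0.408 to 1.16), so depth separated the cluster less well than the number of genes. Against finer cluster 3, all 3 measures differed in the same direction in 14 of 14 mice. These sums are made of the genes that the clustering used, so they describe the cluster and were not tested.

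To compare cells at equal depth, each cell was thinned to 5000 UMIs, which left out 417 cells of finer cluster 8 (16.8%) and 5.39% of all other cells, those with fewer UMIs. By coarser cluster, described below, the loss was 10.0% of its cells in cluster 1, 32.5% in cluster 2 and 8.91% in cluster 4. At that depth its cells had a median of 1496 genes (quartiles 1302 and 1690.5), while the medians of the other 8 clusters ran from 1749 to 2169. Malat1 had a median of 2 UMIs in finer cluster 8 (quartiles 1 and 3) and 86 in all other cells (quartiles 54 and 128). The lowest median among the other clusters was 43. Ribosomal protein genes took a median of 1399 of the 5000 UMIs, against 658 in all other cells. Per mouse, the Malat1 median lay between 1 and 3 UMIs in 15 mice for finer cluster 8 and between 55 and 152 in 20 mice for the other cells.

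**Figure D1:**
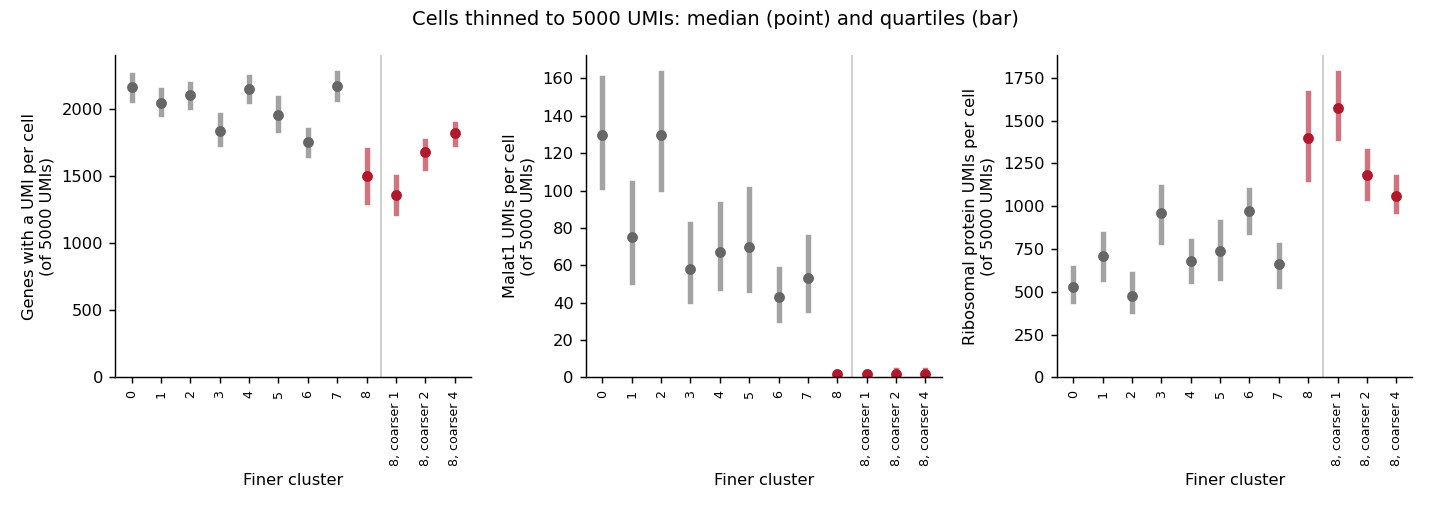
Genes with a UMI, Malat1 UMIs and ribosomal protein UMIs per cell (y axes) after thinning every cell to 5000 UMIs, by finer cluster (x axis), with finer cluster 8 also split by coarser cluster; points are medians over cells and bars run between the quartiles. Finer cluster 8 has the fewest genes (median 1496) and the most ribosomal protein UMIs (median 1399), and its Malat1 median of 2 UMIs is the same in all 3 of its portions.

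Cells with this combination were rare elsewhere. A Malat1 count of 2 or less was found in 0.796% of the other thinned cells and 1496 genes or fewer in 0.241%. At most 2 Malat1 UMIs, at most 1496 genes and at least 1399 ribosomal protein UMIs together were found in 19 of 68378 other cells (0.0278%) and in 29.3% of the cells of finer cluster 8, whose own medians set these limits.

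The genes that set finer cluster 8 apart were described by the ratio of CPM (UMIs of a gene scaled to 1e+06 UMIs) between its cells and other cells of the same mouse, scaled with TMM factors. A gene was counted where its median ratio over mice was at least 2-fold and every mouse had the same sign. Against all other cells, 394 of 7654 genes were higher (5.15%) and 764 were lower (9.98%) in 17 mice. Against finer cluster 3 it was 241 higher (3.3%) and 766 lower (10.5%) of 7299 genes in 14 mice, and against finer cluster 1 322 higher (4.26%) and 577 lower (7.63%) of 7558 genes in 17 mice. The higher counts against finer clusters 3 and 1 moved with the mice and cells used, to 420 and 498 without pool 2, 425 and 519 with at least 50 cells per mouse, and 439 and 554 with only cells of 5000 to 25000 UMIs. The clustering used these genes, so the counts carry no test. The split depends on the scaling. The median log2 ratio of all genes against all other cells was -0.11 with TMM factors and -0.74 with library totals alone, where 21 genes were higher and 2514 lower.

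Of the 5 measured nuclear-retained and long noncoding RNAs on the list, 3 were lower than in the other cells, with a list median of -2.85, and 1 was above 0 in every mouse, at 0.73. Malat1 lay between 597 and 5891 CPM in finer cluster 8 (median of 17 mice 1408) and between 9676 and 22405 CPM in the other cells (median 13503), with no overlap. Its median log2 ratio was -3.38 ± 0.81 (SD over mice, n = 17). Kcnq1ot1 (-3.66), Neat1 (-2.85) and Mir99ahg (-3.10), a host transcript of microRNAs, were lower as well in every mouse. Without any scaling, a cell of finer cluster 8 held 10.1 Malat1 UMIs against 215 in the other cells (medians over mice), a median ratio of 0.0513. All genes together had a ratio of 0.827.

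All 19 measured immediate early genes were lower against all other cells, with a list median of -2.46 on the log2 scale. Fos lay between 95.9 and 225 CPM in finer cluster 8 and between 1170 and 1975 CPM in the other cells. Jun, its partner in the AP-1 factor, had 145 to 345 CPM against 1197 to 2818 CPM. The groups of values did not overlap for either gene. Fosb had the lowest ratio of the named genes (-3.74). Btg2, an antiproliferative gene (-3.23), Klf2, a transcription factor (-3.09), and Adamts1, a protease (-3.07), were also among the lowest. Of the 18 measured TNF and NF-kB genes, 11 were lower, with a list median of -1.89. Il1b, an inflammatory cytokine, was at -2.66 and Nfkbiz, a regulator of NF-kB, at -2.99.

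Fos, Fosb, Jun, Btg2, Klf2 and Adamts1, coding genes among the 10 lowest, each carried TATTTAT, the core of AU-rich elements that shorten the life of an mRNA, in the 3′UTR. Nfkbiz, lower as given above, had no TATTTAT in its 3′UTR. One window of 29 bases is shown for each of the carriers just named, from GENCODE vM21 transcripts on GRCm38, with the motif in capitals.
Fos, chromosome 12: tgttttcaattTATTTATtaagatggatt
Fosb, chromosome 7: ccacccccagcTATTTATccctttcctgg
Jun, chromosome 4: ttgcttgtgcaTATTTATaatagcgttcg
Btg2, chromosome 1: aaatgaagagcTATTTATacatgtttttt
Klf2, chromosome 8: aaacagactgcTATTTATtggaccttagg
Adamts1, chromosome 16: aacaattcatcTATTTATaaaatgtacat

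Over all genes lower than in the other cells, 43.4% of 710 coding genes had TATTTAT in the 3′UTR (sense strand), against 7.20% of 361 higher genes and 28.0% of 7429 measured genes. Long 3′UTRs hold more motifs by length alone, and the lower genes had long ones, with a median of 1564.5 bases against 235 for the higher genes and 997 for all. Among 3′UTRs of 500 to 1000 bases, the motif was in 29.8% of the lower, 9.30% of the higher and 19.7% of all genes. Above 2000 bases the shares were 59.7%, 52.6% and 54.6%. A match of letters is a description and not a site.

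The direction of a gene went with the length of its mRNA. The median length was 893 bases for the higher genes, 4460.5 for the lower genes and 2894 for all genes. Leaving out the lists of ribosomal protein, nuclear oxidative phosphorylation and mitochondrially encoded genes, the median log2 ratio against all other cells was 0.83 up to 1000 bases, 0.30 from 1000 to 2000, -0.13 from 2000 to 4000, -0.47 from 4000 to 8000 and -0.70 above. The fall was stepwise over these bins. Long noncoding genes made up 4.12% of the higher, 5.40% of the lower and 1.47% of all genes.

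**Figure D2:**
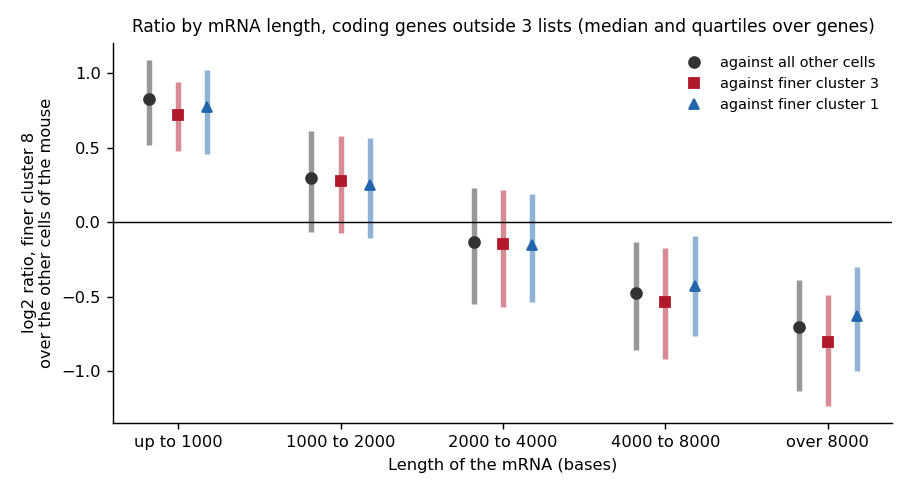
Log2 ratio of finer cluster 8 over other cells of the same mouse (y axis, median over mice) by mRNA length in bases (x axis), for coding genes outside 3 lists; points are medians and bars quartiles over genes, against all other cells, finer cluster 3 and finer cluster 1. The medians against all other cells go from 0.83 in the shortest bin to -0.70 in the longest.

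All 77 cytosolic ribosomal protein genes, which encode the machinery of protein synthesis, were among the 394 genes higher than in the other cells, with a list median of 1.62 on the log2 scale. Rps26, a protein of the small ribosomal subunit, had the highest ratio of the named genes, with 2238 to 5658 CPM in finer cluster 8 against 634 to 1317 CPM in the other cells and a log2 ratio of 2.11 ± 0.45 (SD, n = 17 mice). Rpl41 (1.87), Rpl35 (1.82) and Rps19 (1.82) were also among the highest. With library totals alone the ribosomal list median was 0.86 and 11 of 77 genes passed. Without any scaling, a cell of finer cluster 8 held 2672 ribosomal protein UMIs against 1968, higher in 11 of 17 mice.

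Of the 77 nuclear oxidative phosphorylation genes, 50 were higher and none lower, with a list median of 1.14. Cox8a (1.55), Ndufa1 (1.54) and Atp5e (1.52) encode subunits of respiratory complexes. Of the 13 mitochondrially encoded genes, 9 were higher (list median 1.15). With library totals these medians were 0.55 and 0.61 and no gene of either list passed 2-fold in every mouse. Ftl1, the light chain of the iron store ferritin, was at 5207 to 16808 CPM against 2022 to 4052 CPM (log2 ratio 2.03 ± 0.54, SD, n = 17 mice), and its heavy chain Fth1 was at a log2 ratio of 1.74.

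DAM genes were partly higher against all other cells, with 9 of 32 higher, 2 lower and a list median of 0.90. The list ran from -1.36 to 1.74. Of the 32 genes, 16 were above 0 and 2 below 0 in every mouse. The genes named next do not include the low end of the list, and Lpl, Spp1 and Itgax are not given here for this comparison. Cst7, a cystatin of the DAM program, had a log2 ratio of 1.63, Tyrobp 1.48, Clec7a, a lectin receptor, 1.10, Apoe, a lipid carrier, 1.05 and Trem2 0.88, with Trem2 under the 2-fold limit. Against finer cluster 3, 1 of 32 DAM genes was higher and 2 were lower, a share close to that of all genes for higher (3.3%) and not above it for lower (10.5%), with a list median of 0.48 beside -0.12 for all genes. With library totals that median turned to -0.03 beside -0.60 for all genes. Without any scaling, a cell of finer cluster 8 held fewer DAM UMIs than a cell of finer cluster 3 in 14 of 14 mice (median ratio 0.740, range 0.389 to 0.957), and the ratio for all genes together was 0.698. Against all other cells, the DAM list median with library totals was 0.26. Of 18 homeostatic genes, 2 were lower and 0 higher by 2-fold, a share close to the 9.98% of all genes that were lower. The list median was -0.51 beside -0.11 for all genes, with values up to 0.59. Of the 18 genes, 12 were below 0 and 1 above 0 in every mouse, and the share of all genes with such a sign is not given here. With TMM factors, the summed level of the list was 62228 CPM in finer cluster 8 against 50655 CPM in the other cells. Unscaled, UMIs of the list per cell were higher in 0 of 17 mice. Their median ratio was 0.638 (range 0.378 to 0.802), and the ratio for all genes together was 0.827. Thinned cells held a median of 228 UMIs of the list in finer cluster 8 against 327 in all other cells. The direction of the summed level thus depended on the scaling. Cx3cr1, the fractalkine receptor, was at -1.33, while P2ry12 (-0.90) and Tmem119 (-0.99) did not reach 2-fold with TMM factors. With library totals over the pooled cells of all mice, P2ry12 was at 447 CPM against 1328 CPM in the other cells. Tmem119 was at 329 CPM against 912 CPM. These pooled values are not matched by mouse. The signs of the lysosome list (median 0.54) and the glycolysis list (0.62) turned with library totals, to -0.08 and -0.03.

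**Figure D3:**
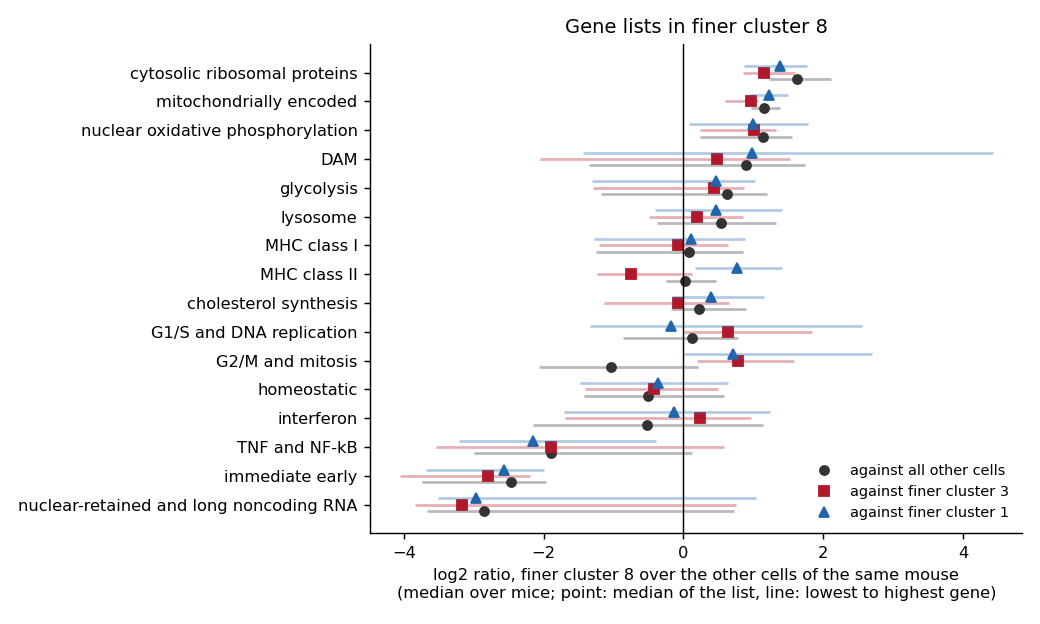
Log2 ratio of finer cluster 8 over other cells of the same mouse (x axis, median over mice, TMM scaling) for 16 gene lists (y axis), against all other cells, finer cluster 3 and finer cluster 1; points are list medians and lines run from the lowest to the highest gene. The ribosomal protein list lies above 0 throughout (median 1.62 against all other cells) and the immediate early list below 0 throughout (median -2.46).

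The working name of the cluster calls it a mix of intermediate cells. Of 7174 genes measured against both finer cluster 3 and finer cluster 1, 176 were higher than in both and 446 were lower than in both. A gene between the levels of the 2 clusters could pass both 2-fold limits only where those clusters lay about 4-fold or more apart, so these counts do not measure how many genes lay between. The genes lower than in finer cluster 3 were shared with the comparison to finer cluster 1 in 61.0% of cases, and the reverse share was 81.5%. Both comparisons share the cells of finer cluster 8.

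A position was given to the genes that differed 2-fold between finer clusters 3 and 1 in every mouse, with 0 at the level of cluster 1 and 1 at that of cluster 3. Levels were scaled with TMM factors, and positions were not taken with library totals alone. For 67 genes higher in cluster 3, finer cluster 8 had a median position of 1.19, with 44 of them beyond the level of cluster 3 and 21 between. For 26 genes higher in cluster 1 the median was 0.59, and 20 of 26 lay between. With this scaling, the cluster as a whole was thus between for most genes of the second set and beyond cluster 3 for most of the first. The DAM list above shows that a level against finer cluster 3 can depend on the scaling. Thinned cells held a median of 366 UMIs of the DAM list in finer cluster 8, 393 in finer cluster 3 and 637 in finer cluster 6. The positions are averages over portions that differed, described next.

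By the coarser clustering, 1410 cells of finer cluster 8 lay in coarser cluster 1 (56.7%), 733 in coarser cluster 2 (29.5%) and 303 in coarser cluster 4 (12.2%). Positions were taken again for each portion, also with TMM factors only. They used the mice with enough cells of the portion, so the genes and mice differ from portion to portion and from those above. The cells in coarser cluster 1 (12 mice) had a median position of 1.40 for 83 genes higher in finer cluster 3, of which 66 lay beyond cluster 3, and of 1.03 for 30 genes higher in finer cluster 1, of which 16 lay beyond cluster 3 and 13 between. The cells in coarser cluster 2 (5 mice) were at 0.07 for 108 genes, of which 58 lay between and 50 beyond cluster 1, and at -0.14 for 204 genes, of which 139 lay beyond cluster 1. Those in coarser cluster 4 (5 mice) were at -0.24 for 101 and -0.24 for 231 genes, of which 77 and 166 lay beyond cluster 1.

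Each portion was then set against the rest of its own coarser cluster in the same mice. In coarser cluster 1, 306 of 6954 genes were higher (4.4%) and 647 lower (9.3%) in 12 mice. In coarser cluster 2 it was 245 (3.24%) and 663 (8.78%) of 7554 in 7 mice, and in coarser cluster 4 83 (1.04%) and 838 (10.5%) of 7959 in 7 mice. Of 6633 genes measured in all 3, 46 were higher and 355 lower in every portion. The immediate early list was lower in each, with 18 of 18, 19 of 19 and 19 of 19 genes and medians of -2.51, -2.58 and -2.71. All 77 ribosomal protein genes were above 0 in every mouse in each portion, with medians of 1.31, 1.08 and 0.90, and the count past 2-fold was 76, 63 and 6. The median of 2 Malat1 UMIs per thinned cell was the same in the 3 portions, while their medians of genes were 1357, 1676 and 1818.

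The portions differed in size between the groups of mice. In AppSAA ATV:ISO mice 91.8% to 96.5% of the cells of finer cluster 8 lay in coarser cluster 1, and in AppSAA 4D9 mice 92.0% to 96.9%. In AppSAA ATV:4D9 mice 18.4% to 38.0% lay in coarser cluster 1, 43.7% to 57.6% in coarser cluster 2 and 15.5% to 21.9% in coarser cluster 4. In WT ATV:4D9 mice 2.61% to 5.10% lay in coarser cluster 1 and 59.1% to 70.8% in coarser cluster 2. The 43 cells of WT ATV:ISO mice lay to 65.1% in coarser cluster 1 and to 20.9% in coarser cluster 0, and with 3 to 21 cells per mouse the share in coarser cluster 1 ran from 0.0% to 81.8%.

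**Figure D4:**
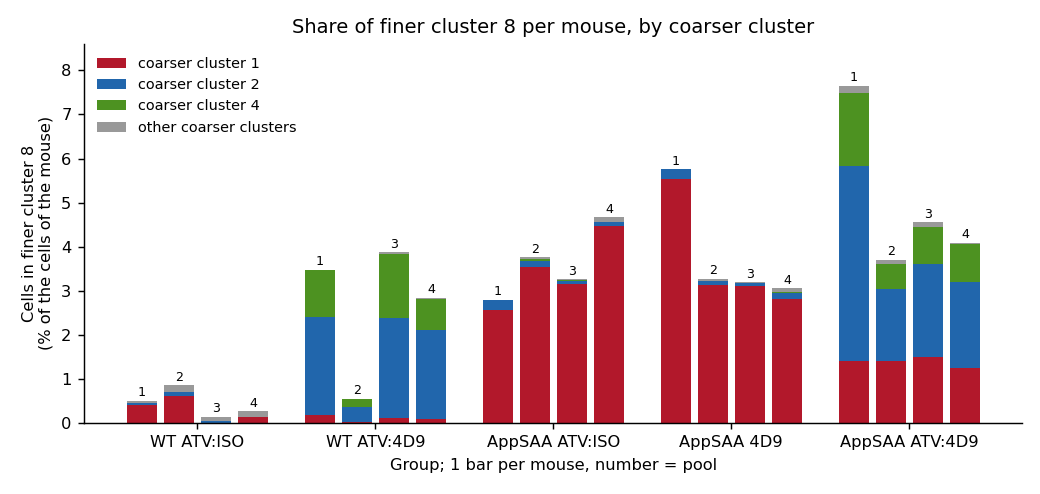
Cells of finer cluster 8 as a percentage of the cells of each mouse (y axis), 1 bar per mouse by group (x axis), numbered by pool and coloured by coarser cluster. The bars of AppSAA mice given ATV:ISO or 4D9 are nearly all coarser cluster 1, and the highest bar is 7.65% in an AppSAA ATV:4D9 mouse.

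The share of finer cluster 8 among all cells of a mouse was 0.50%, 0.85%, 0.14% and 0.27% in WT ATV:ISO mice 1 to 4. It was 3.48%, 0.54%, 3.87% and 2.84% in WT ATV:4D9 mice. AppSAA ATV:ISO mice had 2.80%, 3.75%, 3.26% and 4.66%. WT ATV:ISO mice were low, and a single WT ATV:4D9 mouse lay within their range. AppSAA 4D9 mice had 5.75%, 3.27%, 3.20% and 3.06%, and AppSAA ATV:4D9 mice had 7.65%, 3.70%, 4.56% and 4.09%. The AppSAA groups overlapped one another.

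Means ± SD (n = 4) were 0.439% ± 0.314 for WT ATV:ISO, 2.68% ± 1.49 for WT ATV:4D9, 3.62% ± 0.796 for AppSAA ATV:ISO, 3.82% ± 1.29 for AppSAA 4D9 and 5.0% ± 1.80 for AppSAA ATV:4D9. In two-sided exact permutation tests, whose smallest p at 4 against 4 mice is 0.0286, no contrast of the 6 passed after adjustment. AppSAA ATV:ISO against WT ATV:ISO had a difference of 3.18 percentage points without overlap (exact p = 0.0286, adjusted 0.114). WT ATV:4D9 against WT ATV:ISO had 2.24 (exact p = 0.0571, adjusted 0.114), and AppSAA ATV:4D9 against WT ATV:4D9 had 2.32 (exact p = 0.0571, adjusted 0.114). Within the pools the last difference was 4.17, 3.16, 0.69 and 1.25 percentage points, above 0 in 4 of 4 pools (exact paired permutation p = 0.125, the smallest that 4 pools allow), a test chosen after the shares were seen. Within AppSAA mice, ATV:4D9 against ATV:ISO had 1.38 (exact p = 0.229, adjusted 0.343), ATV:4D9 against 4D9 1.18 (exact p = 0.371, adjusted 0.446) and 4D9 against ATV:ISO 0.2 (exact p = 0.8, adjusted 0.8). Leaving out mice in turn, these differences ran from 0.497 to 1.81, from 0.297 to 1.82 and from -0.444 to 0.548.

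The difference made by ATV:4D9 within a pool was 1.38 ± 2.44 percentage points in AppSAA mice and 2.24 ± 1.77 in WT mice (SD, over the same 4 pools). The 2 did not differ beyond their spread (exact permutation p = 0.571). That test took the differences of the 2 genotypes as independent although they share the pools, and it was not run paired by pool. A count model of cell numbers (edgeR) called 3 of these 7 results. Its adjusted p was 0.000139 for WT ATV:4D9 against WT ATV:ISO and 3.17e-05 for AppSAA ATV:ISO against WT ATV:ISO. For the genotype by ATV:4D9 difference its p was 0.00438, which was not adjusted. The model measures that difference between log2 folds (-2.13), and the exact test above measures it in percentage points, so the 2 are on unlike scales. With the cells of coarser clusters 1, 2 and 4 as the denominator, the differences of WT ATV:4D9 and AppSAA ATV:ISO from WT ATV:ISO turned to -6.34 and -0.728 percentage points, those of AppSAA ATV:4D9 from AppSAA ATV:ISO and 4D9 to -1.81 and -1.95, and the genotype by ATV:4D9 difference to 4.53. With that denominator the WT ATV:ISO mice had 10 of 73, 17 of 101, 1 of 50 and 4 of 82 cells, and none of these differences passed. The exact permutation p adjusted over the 6 contrasts was 0.4, 0.914, 0.4 and 0.557 for the first 4, and the exact p of the genotype by ATV:4D9 difference, which was not adjusted, was 0.371. AppSAA ATV:4D9 against WT ATV:4D9 kept its sign with that denominator. The means were 6.81% (5.27% to 9.87%) and 3.01% (0.630% to 4.21%), without overlap.

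As a share of its own coarser cluster, given here without a test, finer cluster 8 made up 8.97% ± 1.89 of coarser cluster 1 in AppSAA ATV:ISO, 9.26% ± 3.12 in AppSAA 4D9 and 10.7% ± 3.10 in AppSAA ATV:4D9 mice (SD, n = 4 each). WT mice had few cells in coarser cluster 1. The shares there were 29.0%, 24.2%, 0.0% and 14.8% in WT ATV:ISO mice 1 to 4, on 18 to 62 cells each, and 38.1%, 7.14%, 25% and 28.6% in WT ATV:4D9 mice, on 12 to 21 cells each. In coarser cluster 2 it was 6.90% ± 2.46 in AppSAA ATV:4D9 and 3.65% ± 2.06 in WT ATV:4D9 mice.

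Expression between groups within finer cluster 8 was tested on counts summed per mouse (edgeR quasi-likelihood test, Benjamini-Hochberg adjustment over 7542 genes, called at 0.05). The fit held the 16 mice of 4 groups. WT ATV:ISO was left out because a single one of its mice had 20 cells. Levels below are CPM with TMM factors of this fit. Cell numbers, cell states and RNA per cell are not told apart by such sums.

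AppSAA 4D9 against AppSAA ATV:ISO called no gene with edgeR (0.0%), with 188 genes at an unadjusted p under 0.05. DESeq2 and limma/voom also called 0, while the fit with the replicate block called 1 gene and the fit without a filter on low counts called 7.

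AppSAA ATV:4D9 against AppSAA ATV:ISO called 1224 genes higher (16.2%) and 1101 lower (14.6%). All 30 measured G1/S and DNA replication genes and all 24 interferon genes rose, with list medians of 2.86 and 1.97, and 29 of 32 DAM genes and 24 of 24 lysosome genes fell, with medians of -1.06 for DAM. Of 77 ribosomal protein genes, 74 fell, with a median of -0.60. The mix of coarser clusters differed between these groups, as given above, and with only the cells in coarser cluster 1 the counts were 40 genes higher (0.614%) and 6 lower (0.092%) of 6519. That fit held 36 to 70 cells per ATV:4D9 mouse, from 110 to 347 in the whole cluster. The coarser clusters were made from the expression of these cells, so keeping 1 of them can itself narrow differences in the genes that shaped it. What fewer cells, this choice and the mix each took from the calls was not tested.

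Ccl12, a chemokine, was at 4254, 2568, 2596 and 2234 CPM in AppSAA ATV:4D9 mice and at 308, 169, 167 and 225 CPM in ATV:ISO mice, a log2 difference of 3.77 ± 0.28 (SE, adjusted p = 5.91e-12). Pclaf, a partner of the replication clamp PCNA, had 115, 68.2, 72.8 and 75.9 CPM against 4.08, 6.22, 4.14 and 5.54 CPM (log2 difference 4.03 ± 0.25, SE, adjusted p = 1.92e-13). The groups did not overlap for either gene. Mcm5, of the replicative helicase, rose by a log2 difference of 3.16, E2f1, a regulator of the G1/S switch, by 3.17, Top2a, a topoisomerase, by 3.46 and Irf7, an interferon regulator, by 3.23. These rises were not particular to finer cluster 8. In the other cells of the same mice, this contrast called 7792 of 14039 genes. The log2 differences there were 4.09 for Ccl12, 3.73 for Pclaf, 3.34 for Mcm5, 3.24 for E2f1, 2.90 for Top2a and 3.16 for Irf7.

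Lpl, a lipase of the DAM program, was at 195, 209, 251 and 259 CPM against 1010, 727, 800 and 798 CPM, a log2 difference of -1.86 ± 0.14 (SE, adjusted p = 1.23e-11). Hpse, a heparanase, was at -2.30, Il4i1, an amino acid oxidase, at -2.04, Igf1, a growth factor, at -1.90 and Ccl6, a chemokine, at -1.85. All fell without overlap. They fell in the other cells of the same mice as well, with log2 differences of -0.62 for Lpl, -1.06 for Hpse, -1.61 for Il4i1, -1.51 for Igf1 and -1.74 for Ccl6. Of the 8 DAM genes named throughout, 7 fell with all cells of finer cluster 8 and Spp1 was not called (0.02). With only the cells in coarser cluster 1, Lpl was still called. Clec7a (-1.44 with all cells), Trem2 (-1.17) and Itgax (-1.08) were then at -0.44, -0.14 and -0.04 and not called. Cst7, Apoe and Tyrobp turned, to log2 differences of 0.28, 0.24 and 0.05, and were not called either.

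Cd74, the invariant chain of MHC class II, was at 408, 477, 642 and 421 CPM in AppSAA ATV:4D9 mice and at 524, 494, 1439 and 462 CPM in ATV:ISO mice. Its log2 difference was -0.60 ± 0.23 (SE, adjusted p = 0.0418), the groups overlapped, and the call rested on ATV:ISO mouse 3, without which the difference was -0.03. Rps26 was called at -0.39, also with overlapping groups, and with only the cells in coarser cluster 1 Cd74 and Rps26 turned, to 0.32 and 0.11. Tmem119, a homeostatic gene, rose by a log2 difference of 0.96 and P2ry12, a purinergic receptor, fell, at -0.64. Malat1 (-0.39 ± 0.43, SE) and Fos (0.17 ± 0.12, SE) were not called, with edgeR adjusted p = 0.521 and 0.312.

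With only the cells in coarser cluster 1, 19 of 20 interferon genes still rose, with a median of 1.72. Isg15, a ubiquitin-like interferon product, had a log2 difference of 2.38 ± 0.21 (SE, adjusted p = 1.17e-08), Ifitm3, an antiviral membrane protein, 1.80 and Ifit3, an RNA-binding antiviral protein, 1.92. Lpl (-1.04), Il4i1 (-1.08), Ccl3, a chemokine (-1.16), and Plaur, the urokinase receptor (-0.95), fell. The G1/S list had no call among 11 measured genes and a median of 0.16, the DAM list had 1 of 32 lower and a median of -0.01, and the ribosomal protein list had 0 of 77 and a median of 0.06. These genes were chosen after their values were seen.

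**Figure D5:**
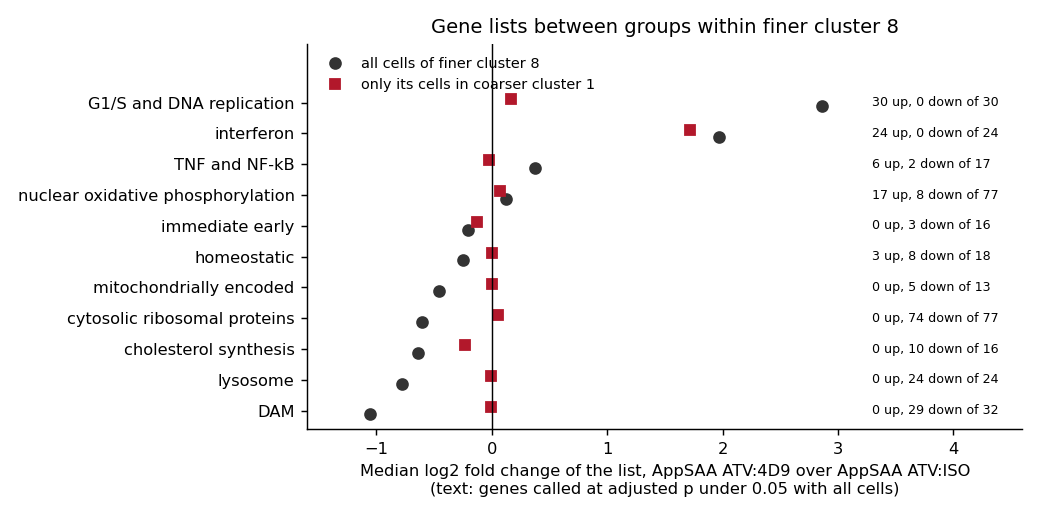
Median log2 fold change of 11 gene lists (y axis) between AppSAA ATV:4D9 and AppSAA ATV:ISO mice within finer cluster 8 (x axis), with all its cells and with only its cells in coarser cluster 1; text at the right counts genes called with all cells. The interferon list stays high in both (1.97 over 24 genes and 1.72 over 20). The G1/S list goes from 2.86 over 30 genes to 0.16 over 11, and the DAM list from -1.06 to -0.01. The coarser clusters were made from the expression of these cells.

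AppSAA ATV:4D9 against AppSAA 4D9, which shares the ATV:4D9 mice with the previous contrast, called 1198 genes higher (15.9%) and 1103 lower (14.6%). With only the cells in coarser cluster 1 it was 46 higher (0.706%) and 9 lower (0.138%). Cxcl13, a chemokine, was at 177, 20.2, 8.0 and 27.4 CPM in AppSAA ATV:4D9 mice and at 2.66, 3.79, 3.93 and 0.948 CPM in 4D9 mice, without overlap. Its log2 difference of 4.46 ± 0.97 (SE, adjusted p = 0.000592) rested in part on ATV:4D9 mouse 1, without which it was 2.74 (adjusted p = 0.0184), and limma/voom did not call it (adjusted p = 0.0604). Flt1, a VEGF receptor, was at -2.62. Lgals1 and Lgals3, which encode galectins, fell by 1.62 and 1.11 on the log2 scale with only the cells in coarser cluster 1.

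AppSAA ATV:4D9 against WT ATV:4D9 called 290 genes higher (3.85%) and 26 lower (0.345%), 316 in all. There were 515 calls with the replicate block, 196 without AppSAA ATV:4D9 mouse 2 and 203 without WT ATV:4D9 mouse 4. Of 32 DAM genes, 21 rose (median 0.81), and so did 17 of 24 interferon genes (0.94) and 55 of 77 ribosomal protein genes (0.43). Of 30 G1/S genes, 6 fell.

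The mix of coarser clusters differed here too, with 18.4% to 38.0% of the cells in coarser cluster 1 in AppSAA and 2.61% to 5.10% in WT mice given ATV:4D9, without overlap. With only the cells in coarser cluster 2, a choice made after seeing the data, 4 AppSAA and 3 WT mice had at least 20 cells, and 21 of 5757 genes were higher (0.365%) and 0 lower (0.0%) with edgeR. Of the 21 genes, 19 were also called with all cells, and 111 genes were lower at an unadjusted p under 0.05. DESeq2 and limma/voom were not run on these cells. Of 23 interferon genes, 9 still rose, with a median of 0.94. The DAM list had 3 of 29 higher and a median of 0.14, the ribosomal protein list had 0 of 77 called and a median of 0.02, and the G1/S list had 0 of 27 called. This fit holds fewer cells and mice, and coarser cluster 2 was itself made from the expression of these cells. What fewer cells, this choice and the mix each took from the calls was not tested.

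Fabp5, a fatty acid binding protein, was at 101, 226, 187 and 171 CPM in AppSAA mice and at 8.44, 5.48, 9.22 and 10.7 CPM in WT mice given ATV:4D9. The groups did not overlap, and the log2 difference was 4.20 ± 0.29 (SE, adjusted p = 1.77e-11). Igf1 (3.39), Wfdc17, a small secreted protein (3.05), Apoe (2.98) and Cst7 (2.30) followed in the same direction. With only the cells in coarser cluster 2, Fabp5 was at 1.66 (adjusted p = 0.326), Apoe at 1.02 (adjusted p = 0.0752), Cst7 at 0.56 and Wfdc17 at 0.51, and none of these 4 was called, while Axl, a receptor kinase, was called at 1.33 and Ifit3 at 1.13. Among the lower genes, Dut, which removes dUTP, was at -0.59 and Gins2, a part of the replication helicase, at -0.64. Spp1, osteopontin, was called at 2.41, and without AppSAA ATV:4D9 mouse 3 its log2 difference was 1.00 with an adjusted p of 0.273. With only the cells in coarser cluster 2 it turned, to -0.46, and was not called.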

How the data were processed

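Single cells of 20 mice in 4 CellPlex pools were analysed. Per the study's methods, the authors used Cell Ranger 6.1.1 with mm10 as the genome, and integrated and clustered cells with Seurat. The deposited matrix holds raw UMI counts per gene and cell, and the deposited annotation gives mouse, group, clusters and the mitochondrial percent. Which cells were removed, and how doublets were treated, is not given in the sources used here, and no doublet caller was run. Counts summed to the annotated total in all 74758 cells. Sources differ on the sort (CD11b+, or with CD45 too) and the tissue (cortex, or cortex and hippocampus).

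UMIs were summed per mouse, for at least 20 cells. Cluster ratios used TMM-scaled CPM (prior count 2, mean CPM of at least 10) without a test. Contrasts used edgeR 4.0.16 in R 4.3.3 (filterByExpr, TMM, quasi-likelihood), with DESeq2 1.42.0 and limma 3.58.1 as alternatives. Shares used exact permutation tests (scipy 1.17.1). Scripts were tested on simulated data. The pool pairs the mice, as the labels place 1 mouse of each group in a pool, and 40 of 40 same-pool pairs had correlated deviations (0.143 to 0.607).

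Named genes were the 10 highest and 10 lowest per comparison with the same sign in every mouse (mean CPM of at least 50), the 10 largest rises and falls per contrast without overlap (mean CPM of at least 20), up to 4 members per list and 16 genes named always. Malat1, Fos, Rps26, Ftl1 and Fth1 were added to the genes named in the contrasts. Malat1 and Fos, and genes named for the cells in coarser cluster 1, were chosen after values were seen. The members and the 30 gene lists were chosen with earlier results of these data known. Some genes that these rules name are not reported here.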

Additional observations from a re-analysis of the deposited data

Results flagged for a closer look

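Within a group of 4 mice, a value was picked out where its gap to the nearest other mouse exceeded Dixon's 95% limit. Chance picks out about 1 in 20 groups, and 13 of 232 groups of gene values (5.60%) and 1 of 17 groups of share and quality values were picked out. The share of finer cluster 8 was 5.75% in AppSAA 4D9 mouse 1. The other values are CPM within finer cluster 8. In AppSAA ATV:ISO mice they were Baiap2l2 at 113 and Cd74 at 1439 in mouse 3, Igf1 at 166 and Trem2 at 6013 in mouse 4, and Top2a at 1.36 in mouse 1. In AppSAA 4D9 mice they were Top2a at 13.3 in mouse 4 and Wfdc17 at 386 in mouse 1. In AppSAA ATV:4D9 mice they were Cxcl13 at 177 and Pclaf at 115 in mouse 1, and Kcnj2 at 22.4 and Spp1 at 654 in mouse 3. In WT ATV:4D9 mice they were Cst7 at 472 in mouse 1 and Dut at 134 in mouse 4.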

How the results depend on the processing

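Against other cells, 1036 of 1087 alternative values moved by less than the spread over mice. Within finer cluster 8, 1514 of 1660 kept direction and side of the threshold, 126 were no longer called, 3 were newly called and 17 turned.

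Library totals alone, an alternative chosen after seeing the data, gave 21, 6 and 59 higher and 2514, 1704 and 2207 lower genes against all other cells, finer cluster 3 and finer cluster 1. Without the CPM filter 1415 and 1172 genes were lower against all other cells and finer cluster 3. Higher genes against finer clusters 3 and 1 were 425 and 519 with at least 50 cells per mouse, 439 and 554 with 5000 to 25000 UMIs, and 420 and 498 without pool 2. Leaving out pools in turn gave 386 to 452 higher and 747 to 819 lower genes against all other cells, 223 to 420 and 697 to 863 against finer cluster 3, and 313 to 498 and 564 to 621 against finer cluster 1.

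AppSAA 4D9 against ATV:ISO called 7 genes without a filter and 1 with the replicate block, and AppSAA ATV:4D9 against WT ATV:4D9 called 515 with the block, which moved no other count of calls by over 1.5 times. With only cells in coarser cluster 1 (chosen after seeing the data), AppSAA ATV:4D9 called 46 genes against ATV:ISO and 55 against 4D9, and with only cells in coarser cluster 2 (also chosen after seeing the data) 21 against WT ATV:4D9. Leaving out mice in turn gave 196 to 417 calls against WT ATV:4D9, with 196 without AppSAA ATV:4D9 mouse 2 and 203 without WT ATV:4D9 mouse 4, 1790 to 2361 against ATV:ISO and 1789 to 2373 against 4D9.

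Gene log2 differences that turned with only cells in coarser cluster 1 were, against ATV:ISO, Cst7 0.28, Apoe 0.24, Tyrobp 0.046, Rps26 0.11 and Cd74 0.32, and against 4D9, Cst7 0.21, Tyrobp 0.0111, Rps26 0.0764, Fos -0.0143, Cd74 0.34 and Fth1 0.11. With only cells in coarser cluster 2, Spp1 -0.46, Trem2 -0.0191 and Malat1 0.15 turned against WT ATV:4D9. Leaving out mice in turn, Malat1 against 4D9 ran from -0.445 to 0.162 (turned without AppSAA 4D9 mouse 4) and Fos against WT ATV:4D9 from -0.042 to 0.125 (turned without WT ATV:4D9 mouse 1 or 3). The causes were not tested.

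With the cells of coarser clusters 1, 2 and 4 as denominator, differences in share turned to -6.34 (WT ATV:4D9 against ATV:ISO), -0.728 (AppSAA against WT, ATV:ISO), -1.81 and -1.95 (AppSAA ATV:4D9 against ATV:ISO and 4D9) and 4.53 (genotype by ATV:4D9). AppSAA 4D9 against ATV:ISO turned to -0.0732 without ATV:ISO mouse 1, -0.444 without 4D9 mouse 1, -0.717 without pool 1 (chosen after seeing the data) and a log2 fold of -0.000596 in the count model with the replicate block. The count model gave log2 folds of 2.60 (WT ATV:4D9 against ATV:ISO), 3.04 (AppSAA against WT, ATV:ISO) and -2.13 (genotype by ATV:4D9), and with the replicate block 2.53, 3.06 and -2.15. Leaving out mice in turn gave -0.444 to 0.548 (AppSAA 4D9 against ATV:ISO), 0.297 to 1.82 and 0.497 to 1.81 (AppSAA ATV:4D9 against 4D9 and ATV:ISO). It gave 1.43 to 2.75 for AppSAA against WT given ATV:4D9 and 2.83 to 3.45 for AppSAA against WT given ATV:ISO. For WT ATV:4D9 against WT ATV:ISO it gave 1.85 to 2.96, and for the genotype by ATV:4D9 difference -2.02 to -0.212.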
